A study of Mus musculus with 258 samples.

Results

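The nuclear genes of the respiratory chain were followed through the formation of endocrine cells in the embryonic mouse pancreas. Members were taken by gene symbol: subunits of complex I (Nduf genes), complex II (Sdh), complex III (Uqcr and Cyc1), complex IV (Cox4 to Cox8) and complex V, the ATP synthase (Atp5). The rule found 83 of 40824 listed genes, with 35 in complex I, 4 in complex II, 9 in complex III, 19 in complex IV and 16 in complex V. Ndufa4, which carries a complex I symbol but is known as a complex IV subunit, was placed in complex IV.

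The series asked how the endocrine fate is chosen and what Jmjd3, a histone H3K27 demethylase encoded by Kdm6b, contributes to it. The bulk data are poly(A) RNA libraries, 2 for each of 3 sorted populations. Dorsal pancreas of E13.5 embryos gave an Ngn3-low and an Ngn3-high population, which differ in the level of Ngn3, the protein of Neurog3 that starts endocrine differentiation. Ins1-RFP+ cells came from E17.5 pancreas and carry a red reporter of the insulin gene Ins1. Single cells of E13.5 dorsal pancreas formed 4 groups: 69 Ngn3-low and 44 Ngn3-high cells of the genotype Pdx1-Cre; Jmjd3 fl/fl, called Jmjd3-deleted here, and 49 Ngn3-low and 59 Ngn3-high wild-type (WT) cells. Pdx1-Cre acts in cells that express Pdx1, a gene of pancreatic progenitors. The labels name no animal for any library or cell and do not say whether WT embryos carried Cre. The p-values for bulk RNA rest on the spread between the 2 libraries of a population, estimated over all 3 populations together. That spread may be technical. The single-cell groups count as 1 sample each, with no test.

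The respiratory chain moves electrons from NADH (complex I) and succinate (complex II) through complex III to oxygen at complex IV. Complexes I, III and IV pump protons, and complex V uses the gradient to make ATP. Some subunits are encoded by mitochondrial DNA and join the nuclear-encoded ones described here, of which part are catalytic and many are accessory. In beta cells, ATP made from glucose closes potassium channels and so triggers insulin release.

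Bulk libraries held 11957415 to 17760214 reads in genes and single cells 380478 to 1949839. Levels are given as CPM, a gene's counts scaled to a common total of gene reads without spike-in rows, and no cell had values identical to another cell. Neurog3 stood at 1191 and 1090.0 CPM in Ngn3-high libraries, against 193 and 161 CPM in Ngn3-low libraries. Kdm6b stood at 107 CPM over Jmjd3-deleted and 265 CPM over WT Ngn3-high cells, and at 55.5 CPM over Jmjd3-deleted and 131 CPM over WT Ngn3-low cells. The 2 libraries of a population differed by more than counting noise in each of the 3 populations (chi-square per degree of freedom of 12.9 to 57.9). Bulk Ngn3-low RNA also held 2509 and 2092 CPM of 11 macrophage and white blood cell markers, led by Csf1r, against 17.6 and 7.61 CPM in Ngn3-high libraries. The second Ins1-RFP+ library held 25095 CPM of 11 acinar markers, against 1423 CPM in the first.

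Members were abundant as a set, and most were widely detected. Their summed level was 7925 and 7503 CPM in the 2 Ngn3-low libraries, 7915 and 7954 CPM in the Ngn3-high libraries, and 6432 and 6549 CPM in the Ins1-RFP+ libraries. In these shares of all reads, the Ins1-RFP+ libraries lay below the other 4. In the same shares, the Ngn3-high libraries did not stand above both Ngn3-low ones. The Ins1-RFP+ sum was lower than the Ngn3-high sum by 0.29 on the log2 scale in these shares, and by 0.21 after trimmed-mean scaling. The Ngn3-high sum was higher than the Ngn3-low sum by 0.04 in these shares, and by 0.12 after trimmed-mean scaling. By complex, summed CPM differed most in complex V, at 2530 and 2601 CPM in Ins1-RFP+ libraries against 3388 and 3537 CPM in Ngn3-high libraries. Complex I stood at 1786 and 1788 CPM in Ins1-RFP+ libraries, against 1905 and 1833 CPM in Ngn3-high libraries. Its log2 ratio was -0.06 in these shares and 0.02 after trimmed-mean scaling, so its direction depended on the scaling. The complex V ratio was -0.43 in these shares and -0.35 after that scaling. Ins1 and Ins2 alone took 32616 and 57466 CPM of the first Ins1-RFP+ library, and 22566 and 37577 CPM of the second. In the single cells, 53 members had a read in each cell and 75 in at least 90% of them.

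Per length, in the RPKM of the authors' deposited table, the catalytic ATP synthase subunit beta gene Atp5b was the highest member in Ngn3-low cells at 491, followed by Cox4i1, a subunit of complex IV, at 355 and Atp5a1, ATP synthase subunit alpha, at 303. The same deposited table gave Atp5b 575.5 in Ngn3-high cells and 468.5 in Ins1-RFP+ cells. The highest members of the other complexes in Ngn3-low cells in the authors' deposited table were Uqcrc1 at 108 and Uqcrb at 105 RPKM for complex III, Sdha at 90.5 and Sdhd at 86.4 for complex II, Cox6b1 at 197 next to Cox4i1 for complex IV, and Ndufa7 at 89.5 and Ndufa6 at 84.1 for complex I. At the other end stood Ndufb2, an accessory subunit of complex I, at 1.47 RPKM in that table, and tissue-restricted isoforms described below. The Ndufb2 value rests on a listed gene length of 4371 bases. Cox7b2, Cox8b and Cox8c, which are known from testis or muscle, had no bulk read, and in the single cells Cox7b2 had 1 read, Cox8b 12 and Cox8c 0.

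The promoters of the 6 members with the largest changes between Ngn3-high and Ins1-RFP+ cells, 3 in each direction, among those at 10 CPM or more are shown for orientation, from 150 bases before to 20 after the start given by RefSeq (GRCm38.p6), in the direction of transcription. The first 3 belong to complex I genes that rose in Ins1-RFP+ cells and the last 3 to genes that fell. Capitals mark matches to 5 motifs searched on both strands: the NRF1 motif, given by name only, the ETS motif with letters CCGGAAG, the YY1 motif with letters AAGATGGC, the SP1 motif with letters GGGCGG and the TATA motif with letters TATAAA. The NRF1 motif reads nearly alike on both strands, so its matches can overlap. The windows are chrX:37191219-37191388 (minus strand), chr6:39592415-39592584 (plus strand), chr19:44555423-44555592 (minus strand), chr13:86046776-86046945 (minus strand), chr15:102671028-102671197 (minus strand) and chr9:44920723-44920892 (minus strand).

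Ndufa1: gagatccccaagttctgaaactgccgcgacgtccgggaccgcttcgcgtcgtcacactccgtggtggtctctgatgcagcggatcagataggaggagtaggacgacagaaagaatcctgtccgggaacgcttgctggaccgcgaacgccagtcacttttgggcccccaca

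Ndufb2: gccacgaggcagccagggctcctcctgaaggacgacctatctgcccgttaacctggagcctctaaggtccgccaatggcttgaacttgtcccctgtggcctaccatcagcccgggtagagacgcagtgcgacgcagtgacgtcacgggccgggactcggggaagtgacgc

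Ndufb8: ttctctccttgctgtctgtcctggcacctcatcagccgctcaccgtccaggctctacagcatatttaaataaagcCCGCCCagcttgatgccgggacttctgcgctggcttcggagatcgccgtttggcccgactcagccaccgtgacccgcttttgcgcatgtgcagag

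Cox7c: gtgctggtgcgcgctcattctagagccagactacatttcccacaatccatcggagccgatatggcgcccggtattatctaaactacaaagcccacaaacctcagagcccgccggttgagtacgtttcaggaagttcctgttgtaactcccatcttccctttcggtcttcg

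Atp5g2: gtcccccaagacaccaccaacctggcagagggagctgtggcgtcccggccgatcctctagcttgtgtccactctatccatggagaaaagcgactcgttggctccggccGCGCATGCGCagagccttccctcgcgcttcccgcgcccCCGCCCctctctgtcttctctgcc

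Atp5l: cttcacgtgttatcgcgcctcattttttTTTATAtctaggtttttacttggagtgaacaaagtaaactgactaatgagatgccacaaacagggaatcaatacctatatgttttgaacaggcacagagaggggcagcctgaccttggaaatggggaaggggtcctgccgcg

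Over the full windows of 250 bases before to 50 after a start, 73 windows of 68 members were matched to the RefSeq promoter table by gene identifier. The NRF1 motif was found in 18 of them (24.7%), against 4.6% of 32851 windows of all genes. The corresponding shares were 21.9% of member windows against 8.86% of all windows for ETS, 13.7% against 2.75% for YY1, 39.7% against 35.7% for SP1 and 11% against 13.6% for TATA. Among windows of members that fell between Ngn3-high and Ins1-RFP+ cells, the NRF1 motif was in 5 of 15, and among those of members that rose it was in 0 of 10. In the same order, ETS was in 4 of 15 and 2 of 10, and YY1 in 3 of 15 and 2 of 10. SP1 was in 6 of 15 and 4 of 10, and TATA in 1 of 15 and 0 of 10. These small counts were not tested. One window, that of Atp5g2, held an NRF1 match among the 6 printed ones. A match is a run of letters and was not tested as a binding site.

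Between the E13.5 populations, 11 members rose in Ngn3-high cells relative to Ngn3-low cells, 2 fell and 67 did not pass the test, of 80 members that passed the expression filter. Of all 15684 genes tested with edgeR's quasi-likelihood test, 57.9% passed at an adjusted p under 0.05, with 27.7% higher and 30.2% lower. Among members 16.2% passed, and their median log2 fold change was 0.09, against -0.01 over all genes. Of the 11 risers, 9 belong to complex I, 8 of these being accessory subunits. Complex I holds 35 of the 80 tested members, 28 of them accessory. Of its 35 members 28.6% passed in either direction, against 57.9% of all genes. With total counts in place of trimmed-mean scaling, 10 members rose and 6 fell, and with hormone, granin and acinar genes left out of the totals 10 rose and 4 fell. Leaving out the second Ngn3-low library left 6 risers, and leaving out the second Ngn3-high library left 1 faller.

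Atp5l, subunit g in the membrane part of ATP synthase near the contact of its dimers, was the strongest riser. Ngn3-low libraries held 60.1 and 65.6 CPM, Ngn3-high libraries 122 and 136 CPM, and Ins1-RFP+ libraries 24.6 and 26.7 CPM. The 3 populations did not overlap. Its log2 fold change was 1.13 (SE 0.11, adjusted p = 3.81e-05) for Ngn3-high over Ngn3-low and -2.25 (SE 0.11, adjusted p = 4.66e-06) for Ins1-RFP+ over Ngn3-high. Processed pseudogenes of Atp5l could share its reads, but the 3 listed here held 1, 8 and 0 bulk reads and 0, 400 and 32 single-cell reads in all.

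Ndufa1, a small accessory subunit of complex I encoded on chromosome X, rose at both steps. Ngn3-low libraries held 18.5 and 15.4 CPM, Ngn3-high libraries 31.1 and 25.3 CPM, and Ins1-RFP+ libraries 50.8 and 56.9 CPM. Its log2 fold change was 0.82 (SE 0.16, adjusted p = 0.00288) at the first step and 1.01 (SE 0.16, adjusted p = 0.00117) at the second. Ndufb2, an accessory subunit of the membrane arm of complex I, followed the same course at a lower level. Ngn3-low libraries held 6.87 and 6.95 CPM, Ngn3-high libraries 11.3 and 11.2 CPM, and Ins1-RFP+ libraries 22.1 and 21.6 CPM, with log2 fold changes of 0.78 (adjusted p = 0.00419) and 1.04 (adjusted p = 0.00108). Ndufb10, another membrane-arm subunit, was the only other member called as rising at both steps, by 0.40 (adjusted p = 0.0108) and 0.35 (adjusted p = 0.0237), and its second call held under 7 of 14 alternative settings.

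Other complex I risers in Ngn3-high cells were Ndufb11 (log2 fold change 0.62, adjusted p = 0.00211), Ndufa11 (0.61, adjusted p = 0.00611), Ndufs5 (0.52, adjusted p = 0.0106), Ndufb3 (0.44, adjusted p = 0.0176) and Ndufs4 (0.33, adjusted p = 0.0448). The Ndufs4 call held under 5 of 14 alternatives. Ndufs1, a core subunit with iron-sulphur clusters, stood at 151 and 167 CPM in Ngn3-high libraries, against 123 and 109 CPM in Ngn3-low libraries (log2 fold change 0.53, SE 0.11, adjusted p = 0.00355). Ndufs1 was the 1 core subunit of 7 that passed. Outside complex I, Cox7a2l, known for joining complexes III and IV into supercomplexes, stood at 196 and 198 CPM in Ngn3-high libraries, against 145 and 128 CPM in Ngn3-low libraries (log2 fold change 0.61, adjusted p = 0.00224).

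The 2 fallers in Ngn3-high cells were Ndufa3, an accessory subunit of complex I, and Cox7a1, the heart and skeletal muscle isoform of Cox7a. Ndufa3 stood at 33.7 and 27.2 CPM in Ngn3-high libraries, against 48.8 and 43.4 CPM in Ngn3-low libraries (log2 fold change -0.51, adjusted p = 0.0217). This call was lost without the first Ngn3-low or the second Ngn3-high library, and over the alternatives the log2 fold change lay between -0.71 and -0.35. Cox7a1 stood at 0.771 and 0.92 CPM in Ngn3-high libraries, against 3.04 and 3.19 CPM in Ngn3-low libraries (log2 fold change -1.80, adjusted p = 0.0024). Markers of white blood cells, endothelium and pericytes were also higher in Ngn3-low RNA. The 3 lists summed to 2509 and 2092, 452 and 494, and 158 and 138 CPM in Ngn3-low libraries. The 9 heart and skeletal muscle markers were not higher there, at 6.93 and 7.93 CPM, against 11.5 and 7.44 CPM in Ngn3-high libraries. Most of the pericyte and smooth muscle sum was Notch3, at 134 CPM over the Ngn3-low libraries. Notch3 also led that list in WT Ngn3-low single cells, at 39.4 CPM. Fewer cells of a type and less RNA per cell cannot be told apart in bulk RNA. The part of these markers in the Cox7a1 fall was not tested, and its single-cell values are given below.

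Several core genes did not pass the test at this step. Sdha stood at 227 and 231 CPM in Ngn3-high libraries, against 284 and 278 CPM in Ngn3-low libraries, groups that did not overlap, with a log2 fold change of -0.21 (adjusted p = 0.109). Atp5b stood at 1063 and 1158 CPM in Ngn3-high libraries, against 1018 and 999 CPM in Ngn3-low libraries (log2 fold change 0.22, adjusted p = 0.168). Atp5a1 differed by -0.02 and Cox4i1 by -0.03 on the log2 scale. Uqcrfs1, the Rieske iron-sulphur protein of complex III, and Cox5a, a subunit of complex IV, were higher in library 2 than in library 1 of each population. Uqcrfs1 stood at 84.2 and 126 CPM in Ngn3-high libraries, against 69.3 and 94.6 CPM in Ngn3-low libraries, so the spread between libraries exceeded the difference between populations (adjusted p = 0.132).

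**Figure D1:**
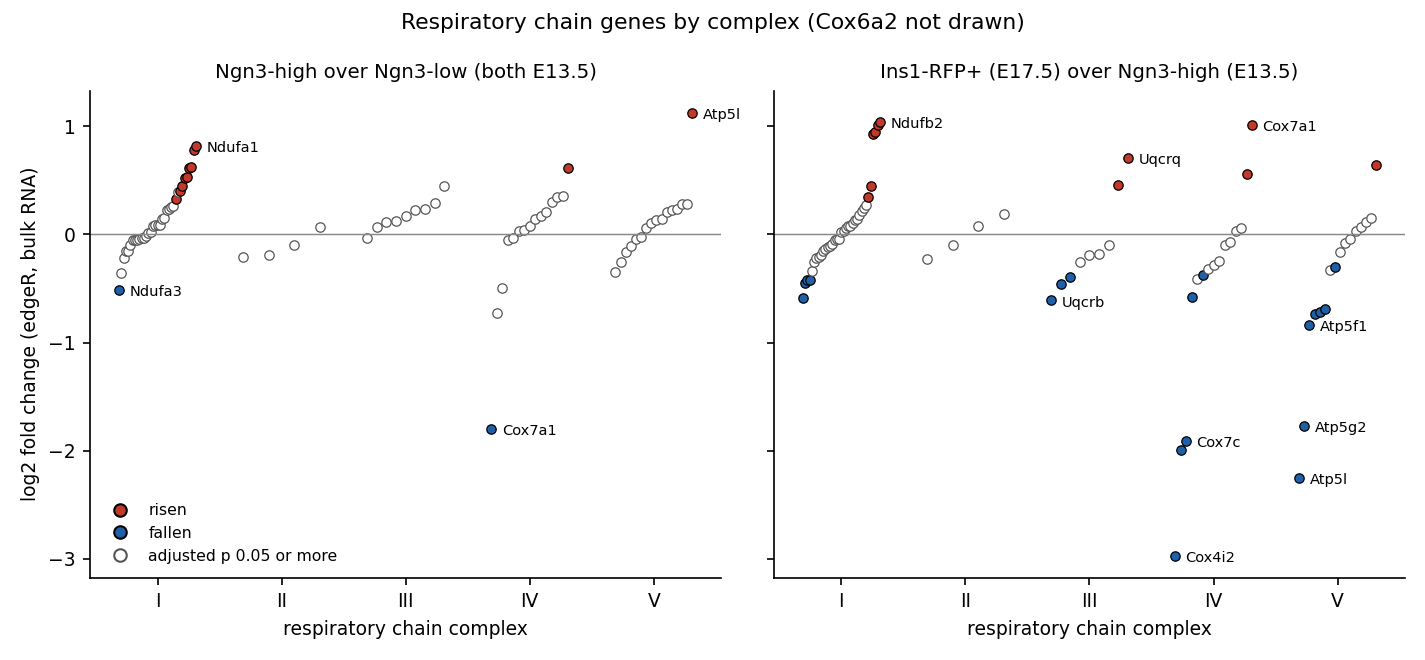
Log2 fold changes (vertical axis, edgeR) of the tested members by complex (horizontal axis), for Ngn3-high over Ngn3-low on the left and Ins1-RFP+ over Ngn3-high on the right, with filled points past an adjusted p of 0.05. Complex I, with 35 of the 80 tested members, holds 9 of the 11 risers on the left. Complex V, with 16 of them, holds 7 of the 19 fallers on the right. Cox6a2 is not drawn because both Ngn3-high libraries had no read.

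Between Ngn3-high cells at E13.5 and Ins1-RFP+ cells at E17.5, 12 members rose, 19 fell and 49 of 80 did not pass. Of all genes tested, 50.9% passed, with 26.1% higher and 24.9% lower, and of the members 38.8%. The members' median log2 fold change was -0.10, against 0.01 over all genes. Complex V had 1 riser and 7 fallers of 16, complex IV had 3 risers and 5 fallers of 16, complex III 2 risers and 3 fallers of 9, complex I 6 risers and 4 fallers of 35, and none of the 4 complex II genes passed. With total counts 8 members rose and 27 fell. Leaving out the first Ins1-RFP+ library left 7 risers, and leaving out the second, with its high acinar markers, left 9 risers and 17 fallers.

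The largest falls at 10 CPM or more were those of Atp5l, given above, Cox7c and Atp5g2. Cox7c, a small nuclear subunit of complex IV, had 117 and 108 CPM in Ngn3-low libraries, 119.9 and 115 CPM in Ngn3-high libraries, and 30.7 and 28.3 CPM in Ins1-RFP+ libraries. The 4 libraries of E13.5 overlapped, and both Ins1-RFP+ libraries lay far below them (log2 fold change over Ngn3-high -1.91, SE 0.11, adjusted p = 9.63e-06). Atp5g2 encodes, with Atp5g1 and Atp5g3, the same mature c subunit that forms the rotating ring of ATP synthase. Ngn3-low libraries held 139 and 119 CPM, Ngn3-high libraries 122 and 105 CPM, and Ins1-RFP+ libraries 33.6 and 29.2 CPM, a log2 fold change over Ngn3-high of -1.77 (SE 0.14, adjusted p = 3.9e-05).

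Further complex V genes fell with them. Atp5f1, subunit b of the stalk that holds the motor still, stood at 119.7 and 113 CPM in Ins1-RFP+ libraries, against 211 and 229 CPM in Ngn3-high libraries (log2 fold change -0.83, adjusted p = 0.00051). Atp5j2, subunit f of the membrane part, fell by 0.73 (adjusted p = 0.000462), Atp5o, the stalk subunit also called OSCP, by 0.72 (adjusted p = 0.00231), and Atp5h, stalk subunit d, by 0.69 (adjusted p = 0.00116) on the log2 scale. Atp5g3 was called as well (-0.30, adjusted p = 0.0399), under 4 of 14 alternatives. The catalytic subunits did not pass: Atp5b stood at 821 and 846 CPM in Ins1-RFP+ libraries, against 1063 and 1158 CPM in Ngn3-high libraries (log2 fold change -0.33, adjusted p = 0.0584), and Atp5a1 differed by -0.16 (adjusted p = 0.29). Atp5s, named as coupling factor s, was the 1 riser, at 13.1 and 12.3 CPM in Ins1-RFP+ libraries against 7.59 and 9.70 CPM in Ngn3-high libraries (log2 fold change 0.64, adjusted p = 0.0295).

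Beside Cox7c and the isoforms Cox4i2 and Cox6b2 described below, 5 members of complexes III and IV were called lower. Uqcrb fell by 0.61 (adjusted p = 0.0134), the hinge subunit gene Uqcrh by 0.46 (adjusted p = 0.0212) and Cyc1, cytochrome c1, by 0.39 (adjusted p = 0.0178) on the log2 scale, and Cox6c fell by 0.58 (adjusted p = 0.00152). Cox7a2l fell by 0.38 (adjusted p = 0.0276), at 151 and 135 CPM in Ins1-RFP+ libraries, against 196 and 198 CPM in Ngn3-high libraries. Uqcrq rose within the same complex III, at 52.4 and 52.1 CPM in Ins1-RFP+ libraries against 35.8 and 31.9 CPM in Ngn3-high libraries (log2 fold change 0.71, adjusted p = 0.00151). Uqcr11 rose by 0.46 (adjusted p = 0.024) and Cox8a, the common form of Cox8, by 0.55 (adjusted p = 0.00681).

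Complex I genes, 35 of the 80 tested members, supplied most of the other risers. Of these 35, 6 rose and 4 fell, where 26.1% of all genes rose and 24.9% fell. Ndufb8, a membrane-arm accessory subunit, stood at 60.5 and 56.3 CPM in Ins1-RFP+ libraries, against 32.4 and 31.9 CPM in Ngn3-high libraries (log2 fold change 0.94, SE 0.13, adjusted p = 0.000642). Ndufv3, an accessory subunit of the NADH-oxidising module, stood at 78.4 and 58.3 CPM in Ins1-RFP+ libraries, against 41.5 and 34.7 CPM in Ngn3-high libraries (log2 fold change 0.93, SE 0.17, adjusted p = 0.00277). Ndufc1 was called too (0.44, adjusted p = 0.0427), under 6 of 14 alternatives. The complex I fallers were Ndufs5 (-0.59, adjusted p = 0.00789), Ndufa9 (-0.45, adjusted p = 0.0258), Ndufs3 (-0.42, adjusted p = 0.017) and Ndufa10 (-0.42, adjusted p = 0.0102). Of these, Ndufs3 is a core subunit and Ndufs5 had risen at the first step.

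**Figure D2:**
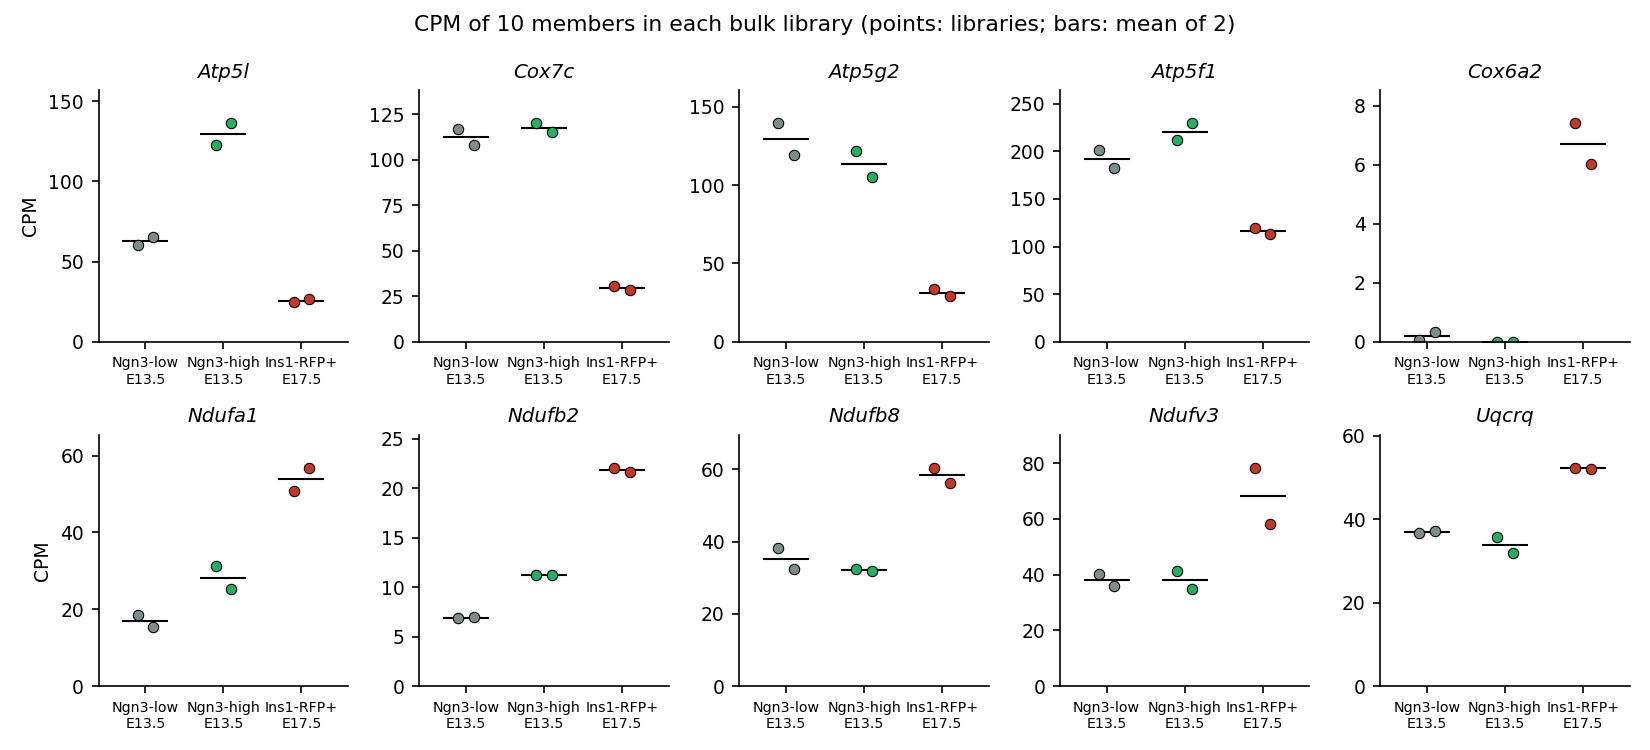
CPM (vertical axes, starting at 0) of 10 members in the 2 libraries of each bulk population in stage order (points), with the mean of the 2 as a bar. Atp5l peaks in Ngn3-high libraries, Cox7c, Atp5g2 and Atp5f1 are lowest in Ins1-RFP+ libraries, and Cox6a2, Ndufa1, Ndufb2, Ndufb8, Ndufv3 and Uqcrq are highest there.

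Across both steps, 3 members rose and then fell (Atp5l, Ndufs5 and Cox7a2l), 3 rose at both steps, 1 fell and then rose (Cox7a1), and none fell at both. A further 16 members were not called at the first step and fell at the second, and 8 were not called and then rose. Of all 15684 genes tested, 1642 rose and then fell, 5.99% rose at both steps, 11.1% fell and then rose, 9.62% were not called and then fell, and 8.94% were not called and then rose. Both steps share the Ngn3-high libraries, so these patterns do not rest on separate samples. In the direct comparison of Ins1-RFP+ with Ngn3-low cells, which shares libraries with both steps, 16 members rose and 18 fell, where 66% of all genes passed, 30.4% higher and 35.5% lower. With total counts the split was 12 risers and 27 fallers, with median-ratio scaling 20 and 15, and with only the 2 populations in the fit 24 and 13. The median log2 fold change of the members was -0.03 with all 3 populations and 0.07 with only these 2. Leaving out the second Ngn3-low library left 10 risers, and leaving out the first left 10 fallers. Ndufa1 and Ndufb2 differed by 1.83 each and Atp5o by -0.98 (adjusted p = 0.000233) on the log2 scale. There were 37 of 80 members (46.2%) called in none of the 3 comparisons, against 18.2% of all genes.

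Isoform genes of one subunit were compared by their reads per kilobase, which does not depend on library size. Atp5g2 made up 41.4% and 38.4% of the c subunit reads per kilobase in Ngn3-low, 36.6% and 32.6% in Ngn3-high, and 16.7% and 15.1% in Ins1-RFP+ libraries. Atp5g3 made up 55.9% and 58.5%, 60.4% and 64.8%, and 78.7% and 80.1% in the same order. Atp5g1 made up 2.64% to 4.87%. The Ins1-RFP+ libraries thus held a larger share of Atp5g3 than each of the other 4 libraries. The low Atp5g1 share rests on its listed length of 4715 bases, against 753 for Atp5g2 and 862 for Atp5g3. Without division by length, Ins1-RFP+ libraries held 59.2 and 59.2 CPM of Atp5g1, against 33.6 and 29.2 CPM of Atp5g2.

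Cox6a2, the heart and skeletal muscle isoform of Cox6a, appeared in Ins1-RFP+ libraries at 7.41 and 6.04 CPM, or 199 reads in all. Both Ngn3-high libraries had 0 reads, which against a floor of 3 counts over the group (0.104 CPM) made the level at least 65.2-fold higher in Ins1-RFP+ libraries. Ngn3-low libraries held 5 reads. Cox6a2 made up 6.70% and 6.32% of Cox6a reads per kilobase in Ins1-RFP+ libraries, with Cox6a1 as the rest. The 9 heart and skeletal muscle markers summed to 2.14 and 2.54 CPM in Ins1-RFP+ libraries, against 11.5 and 7.44 CPM in Ngn3-high libraries, with none of the 9 at 0. Cox6a2 had no read in any of the E13.5 single cells.

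Of the other restricted isoforms with calls, Cox4i2 and Cox6b2 fell and Cox7a1 rose in Ins1-RFP+ relative to Ngn3-high cells. Cox4i2, the isoform known from lung and oxygen-sensing cells, stood at 0.188 and 0.0746 CPM in Ins1-RFP+ libraries, against 1.13 and 1.25 CPM in Ngn3-high libraries (log2 fold change -2.97, adjusted p = 0.00343). Cox6b2, a testis isoform, stood at 1.95 and 1.57 CPM in Ins1-RFP+ libraries, against 10.3 and 4.52 CPM in Ngn3-high libraries (log2 fold change -2.00, adjusted p = 0.00457). Cox7a1 stood at 1.57 and 1.64 CPM in Ins1-RFP+ libraries, against 0.771 and 0.92 CPM in Ngn3-high libraries, a call (adjusted p = 0.0471) that held under 2 of 13 alternatives. Cox4i1 kept at least 99.2% of Cox4i reads per kilobase in every bulk library. Markers of pericytes and smooth muscle summed to 28.6 and 44.4 CPM in Ins1-RFP+ libraries, against 62.6 and 42.9 CPM in Ngn3-high libraries. Notch3 was the highest of them, at 16.5 CPM over Ins1-RFP+ and 46.9 CPM over Ngn3-high libraries. The part of these markers in the Cox4i2 difference was not tested.

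**Figure D3:**
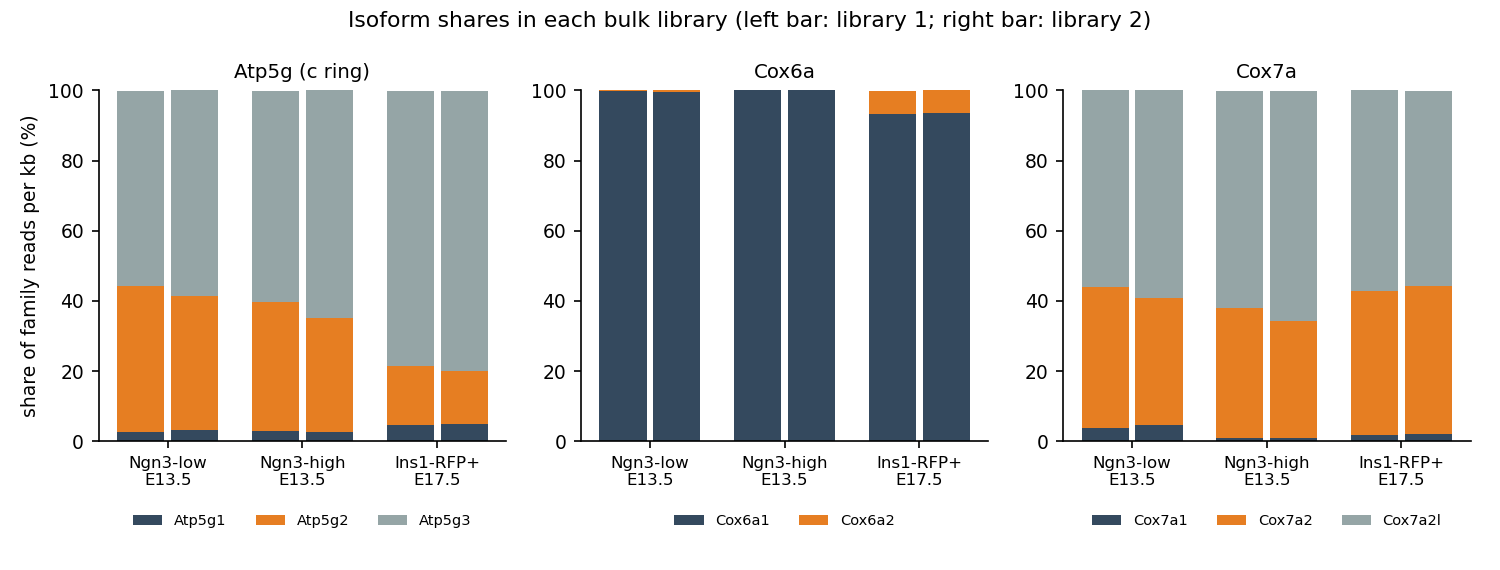
Share of each isoform in its family's reads per kilobase (vertical axis, percent) in the 2 libraries of each bulk population. The Atp5g2 band shrinks to 16.7% and 15.1% in Ins1-RFP+ libraries, and Cox6a2 takes 6.70% and 6.32% there.

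The single cells were a separate set of libraries for the first step. Each of the 11 members that rose in bulk Ngn3-high RNA was also higher in WT Ngn3-high than in WT Ngn3-low cells, with a median log2 ratio of 0.48, and 10 of 11 were higher in Jmjd3-deleted cells, with a median of 0.29, Ndufb3 (-0.01) being the other. Both bulk fallers were lower in Ngn3-high cells of either genotype. The 67 members not called in bulk had median log2 ratios of 0.07 in WT and -0.21 in Jmjd3-deleted cells. Of 76 members at 20 CPM or more, 50 were above 0 in WT and 21 in Jmjd3-deleted cells. Their median log2 ratio was 0.09 in WT and -0.16 in Jmjd3-deleted cells, against -0.01 and 0.003 over all genes at that level. The share of all genes above 0 was not counted. How many of all genes that rose in bulk were also higher in the single cells was not counted. Across the 80 members tested in bulk, Spearman's rho between bulk and single-cell differences was 0.76 for WT and 0.70 for Jmjd3-deleted cells, given as a description, since members are not replicates.

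Atp5l had the largest ratio in WT cells and the second after Cox7a2l in Jmjd3-deleted cells. It stood at 112 CPM over WT Ngn3-high cells, against 55.2 CPM over WT Ngn3-low cells, a log2 ratio of 1.01, and at 109.6 CPM over Jmjd3-deleted Ngn3-high cells, against 63 CPM over Jmjd3-deleted Ngn3-low cells, a log2 ratio of 0.79. It was at 10 CPM or more in each cell, with medians of 101 CPM in WT Ngn3-high and 51.1 CPM in WT Ngn3-low cells. Cox7a2l stood at 341 CPM over WT Ngn3-high and 204 CPM over WT Ngn3-low cells (log2 ratio 0.74), and its log2 ratio in Jmjd3-deleted cells was 0.85. Ndufs5 differed by 0.69 and 0.58, Ndufa1 by 0.65 and 0.52, and Ndufs1 by 0.53 and 0.61 on the log2 scale in WT and Jmjd3-deleted cells. Of the members at 20 CPM or more, Ndufs6 (-0.51), Ndufa3 (-0.36) and Uqcrc2 (-0.32) had the lowest ratios in WT cells, and Ndufa3 (-0.59), Atp5s (-0.57) and Atp5g2 (-0.55) in Jmjd3-deleted cells. The Atp5s ratio was -1.06 for cells with title number 1 and 0.72 for number 5, opposite directions.

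These differences between gates were small beside those of other genes. Of 76 members at 20 CPM or more, 1 reached 2-fold in WT cells, where 12.7% of 8734 genes were at least 2-fold higher and 16.4% at least 2-fold lower. None reached it in Jmjd3-deleted cells, where the shares of 8723 genes were 13.8% and 16%. Cox7a1 was at 10 CPM or more in 8 of 59 WT Ngn3-high and 20 of 49 WT Ngn3-low cells, and in 3 of 44 Jmjd3-deleted Ngn3-high and 25 of 69 Jmjd3-deleted Ngn3-low cells. Its log2 ratios were -1.61 in WT and -1.92 in Jmjd3-deleted cells. The 11 white blood cell markers summed to 4.25 to 9.28 CPM over the 4 single-cell groups.

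**Figure D4:**
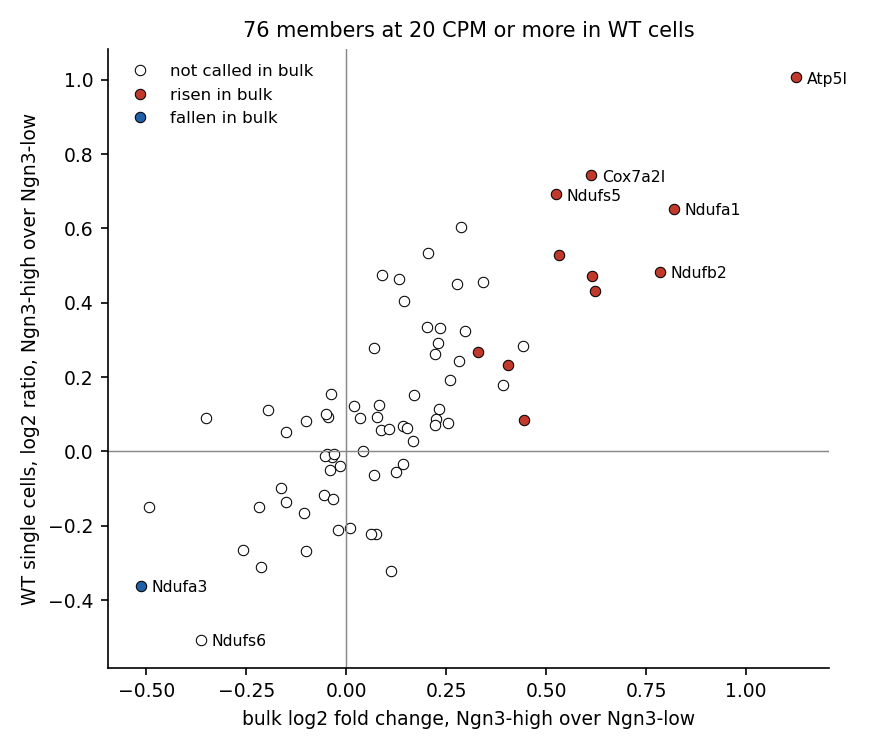
Log2 ratio of Ngn3-high over Ngn3-low in WT single cells (vertical axis, summed counts) against the bulk log2 fold change (horizontal axis) for the 76 members at 20 CPM or more in WT cells, coloured by bulk call. Atp5l lies at the top right, and the members that rose in bulk lie above 0 on both axes.

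For the effect of Jmjd3 deletion, none of 76 members reached 2-fold in either gate. In Ngn3-low cells 0.513% of 8186 genes were at least 2-fold higher and 1.17% at least 2-fold lower, and in Ngn3-high cells 0.896% of 7812 genes in each direction. In Ngn3-low cells, 71 of 76 members were higher in Jmjd3-deleted than in WT cells, with a median log2 ratio of 0.19, against 0.03 over all genes at that level. Summed members took 19033 CPM (exact 95% Poisson interval 18995 to 19070) over Jmjd3-deleted and 16589 CPM (16544 to 16633) over WT Ngn3-low cells. In Ngn3-high cells, 26 of 76 members were higher, with a median of -0.06, against 0.03 over all genes at that level. Summed members took 17128 CPM (17083 to 17173) over Jmjd3-deleted and 17629 CPM (17590 to 17669) over WT Ngn3-high cells. The share of all genes that were higher was not counted in either gate. The intervals cover counting error only, and Smart-seq2 reads without molecular identifiers are not independent molecules.

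Cells of 1 group differed by the number in their title, whose meaning the labels do not give. In Ngn3-low cells the log2 ratio of Jmjd3-deleted over WT was 0.17 for title number 1, 0.39 for number 2 and 0.28 for number 5. These rest on 18 Jmjd3-deleted and 10 WT cells, 36 and 13, and 15 and 5. A shared number need not mean matched cells. For number 2, WT cells had medians of 10680 genes and 2.35% ERCC spike-in reads, against 8918.5 genes and 4.07% in Jmjd3-deleted cells. WT Ngn3-low cells of number 4, a number that no Jmjd3-deleted cell carries, had a median of 19982 CPM per cell, above the medians of Jmjd3-deleted cells of number 1 (18581), number 2 (19268) and number 5 (17273). Those 14 WT cells also had the fewest reads (median 457105) and genes (median 6883) of any number. Across all 49 WT Ngn3-low cells, Spearman's rho of summed members was -0.44 with reads and -0.48 with genes per cell. In the 69 Jmjd3-deleted Ngn3-low cells it was 0.25 and 0.13, so the relation to depth differed in sign between the genotypes. The part of depth in these levels and ratios was not tested. In Ngn3-high cells the ratio was -0.01 for number 1, -0.15 for number 5 and -0.07 for number 6.

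Single members differed less evenly. Ndufa9, an accessory subunit of complex I, had the largest log2 ratio in Ngn3-low cells, at 163 CPM over Jmjd3-deleted and 124 CPM over WT cells (0.39), but it was -0.24 for title number 1, 0.54 for number 2 and 1.34 for number 5. Ndufa1 followed at 0.37, with -0.01, 0.76 and -0.15 for those 3 numbers. Ndufa12 came next at 0.36 and was above 0 in the 3 shared numbers (0.41, 0.51 and 0.94). Cox7a2l was lowest, at 181 CPM over Jmjd3-deleted and 204 CPM over WT cells (-0.17). In Ngn3-high cells Atp5s was lowest, at 20.1 CPM over Jmjd3-deleted and 35.7 CPM over WT cells (-0.80), with -1.35 and -1.38 for title numbers 1 and 6 and 0.06 for number 5. Ndufc2 (-0.38) and Ndufb4 (-0.37) were below 0 in each of the 3 shared numbers, and Ndufa1 (0.24), Ndufa9 (0.23) and Ndufa7 (0.21) were the highest there. For title number 5, however, Ndufa1 (-0.18) and Ndufa9 (-0.35) were below 0, while Ndufa7 was above 0 in each of the 3. Cox4i2 was at 10 CPM or more in 1 of 44 Jmjd3-deleted and 6 of 59 WT Ngn3-high cells.

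**Figure D5:**
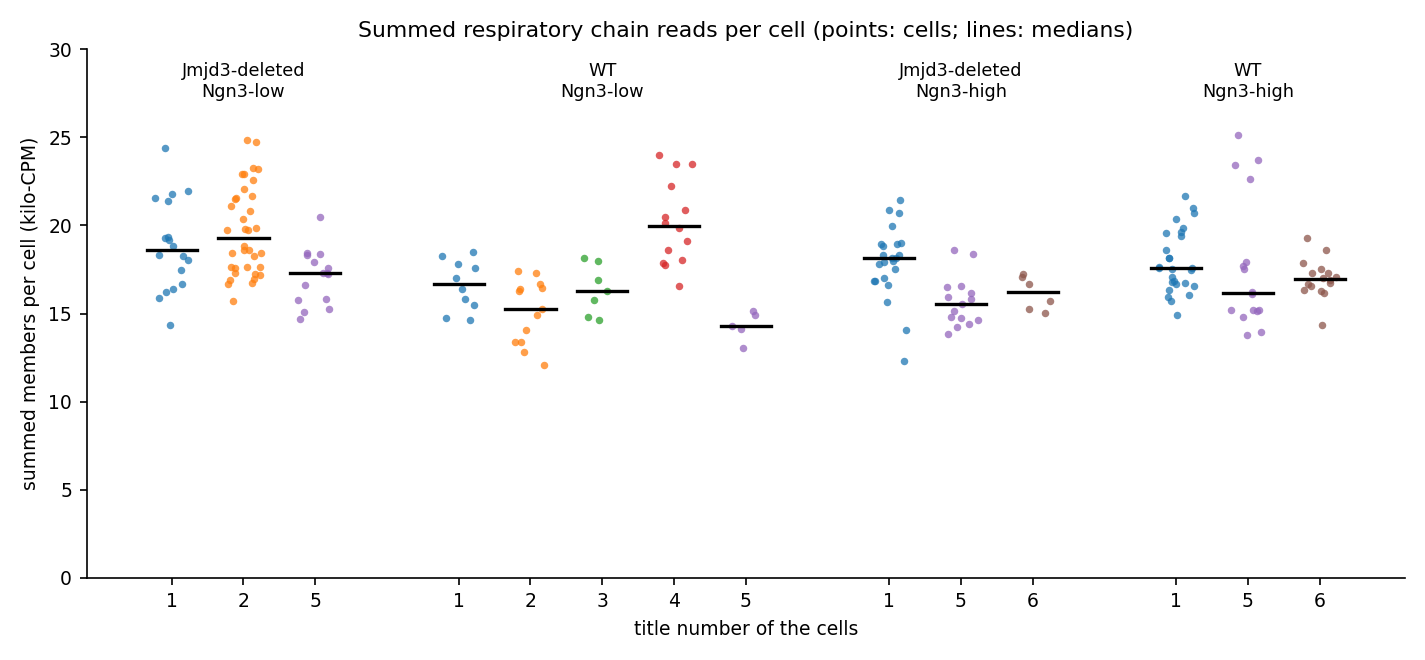
Summed member level per cell (vertical axis, kilo-CPM, starting at 0) by title number (horizontal axis) in the 4 single-cell groups, with points for cells and lines for medians. Among WT Ngn3-low cells, those of title number 4 have the highest median (19982 CPM).

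Across cells of 1 group, the summed levels of complexes I and V varied together, with Spearman's rho of 0.59 in 44 Jmjd3-deleted Ngn3-high, 0.69 in 59 WT Ngn3-high, 0.69 in 69 Jmjd3-deleted Ngn3-low and 0.73 in 49 WT Ngn3-low cells. Complexes I and IV gave 0.62, 0.51, 0.77 and 0.64 in the same order. Complex II followed the others less closely, with 0.11, 0.01, 0.22 and 0.39 against complex I. Complexes measured in a cell share its depth and amplification, so these values are descriptions.

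Neighbouring mitochondrial and metabolic genes were counted in the same bulk fits, in which 27.7% of all genes rose and 30.2% fell at the first step and 26.1% rose and 24.9% fell at the second. Each count is a description beside those shares. For glycolysis, 3 of 21 genes rose and 15 fell in Ngn3-high relative to Ngn3-low cells, with a median log2 fold change of -0.92. The hexokinase gene Hk1 stood at 1.13 and 0.585 CPM in Ngn3-high libraries, against 21.1 and 23.2 CPM in Ngn3-low libraries (log2 fold change -4.54, adjusted p = 1.04e-05). Between Ngn3-high and Ins1-RFP+ cells 9 glycolysis genes rose and 4 fell, and Slc2a2, the glucose transporter GLUT2, stood at 752 and 536 CPM in Ins1-RFP+ libraries, against 18 and 28.6 CPM in Ngn3-high libraries. Macrophage markers were also higher in bulk Ngn3-low RNA, and their part in the glycolysis counts was not tested.

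Of 21 genes of pyruvate dehydrogenase and the citric acid cycle, 7 rose and 3 fell in Ngn3-high cells, and 5 rose and 3 fell in Ins1-RFP+ relative to Ngn3-high cells. Mpc1, a subunit of the mitochondrial pyruvate carrier, also rose and then fell: its log2 fold change was 1.39 (adjusted p = 2.15e-05) at the first step and -1.86 (adjusted p = 1.37e-05) at the second. Pcx, pyruvate carboxylase, stood at 135 and 136 CPM in Ins1-RFP+ libraries, against 15.1 and 16.8 CPM in Ngn3-high libraries (3.17, adjusted p = 1.21e-06). Among 26 carriers and exchange genes, 6 rose and 5 fell at the first step and 4 rose and 7 fell at the second. Cycs, cytochrome c, stood at 22.2 and 21.9 CPM in Ins1-RFP+ libraries, against 58.5 and 60.5 CPM in Ngn3-high libraries (-1.35, adjusted p = 4.92e-05). The aspartate-glutamate carriers crossed over, with log2 fold changes of 1.93 for Slc25a12 (adjusted p = 1.68e-05) and -1.62 for Slc25a13 (adjusted p = 0.000955) in Ins1-RFP+ over Ngn3-high cells.

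Besides the carriers and exchange genes, 3 lists had more fallers than risers in Ins1-RFP+ relative to Ngn3-high cells. They were protein import, the mitochondrial ribosome, and cristae, fusion and fission. Of all genes, 26.1% rose and 24.9% fell at this step. Of 24 protein import genes 1 rose and 11 fell (median log2 fold change -0.26), of 76 mitochondrial ribosome genes 6 rose and 21 fell (median -0.19), and of 20 cristae, fusion and fission genes 1 rose and 9 fell (median -0.29), including Phb, prohibitin, at 17.3 and 19.8 CPM in Ins1-RFP+ libraries against 52 and 54 CPM in Ngn3-high libraries. Of 41 assembly factors, 6 rose and 3 fell at each step. Of 19 regulators of mitochondrial biogenesis, 1 rose and 7 fell in Ngn3-high cells and 3 rose and 3 fell at the second step. The 1 riser was Esrrg, a nuclear receptor, at 21.4 and 25.8 CPM in Ngn3-high libraries against 1.75 and 3.11 CPM in Ngn3-low libraries (log2 fold change 3.40, adjusted p = 1.51e-05), and it fell by 1.59 (adjusted p = 0.00104) at the second step. Antioxidant genes numbered 4 risers and 10 fallers of 19 at the first step and 8 and 4 at the second, and hypoxia response genes 5 and 5 of 17, then 8 and 3.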

How the data were processed

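Bulk RNA (6 libraries) and single cells (4 groups) were analysed, and 31 chromatin immunoprecipitation samples were not used here. The authors deposited whole-number counts per gene, made with HTSeq 0.6.0 after TopHat2 2.1.0 and Bowtie2 alignment to mm10, per the submitters' processing notes. These are raw. The authors also deposited RPKM, 1 pooled value for each bulk population. Per the labels' protocols, bulk libraries came from a strand-specific kit and single cells from Smart-seq2 with ERCC spike-ins. Which strand setting the counting used is not given in the sources used here. Reads of a gene and an antisense partner cannot be told apart, and reads of pseudogenes and near-identical copies could be split.

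The 92 ERCC entries among 40916 were left out of totals. Every column was tied to a sample, with 0 left over. Bulk counts were tested with edgeR 4.0.16 in R 4.3.3: expression filter, trimmed-mean factors, quasi-likelihood test over all 6 libraries, Benjamini-Hochberg adjustment at 0.05 over 15684 genes. DESeq2 1.42.0 was an alternative. The scripts were tested on simulated data. Single-cell counts were summed per group, with 1 CPM added to each side of a log2 ratio. Where no read was seen, 3 counts served as the limit (0.169 to 0.251 CPM per bulk library).

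Members and lists were chosen with earlier results of these data known. Genes were named by a rule: core subunits, isoform families, the 4 largest called rises and falls per bulk comparison at 10 CPM or more, 3 per direction in each single-cell difference at 20 CPM and 25% of cells, the 2 highest RPKM per complex, and up to 3 called genes per other list. Other members named as called complete the counts and were named after their values were seen. Protein sequences were not used here, so isoforms were not compared by identity. Promoter windows and positions are from RefSeq (GRCm38.p6).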

Additional observations from a re-analysis of the deposited data

Results flagged for a closer look

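Summed members were higher in Jmjd3-deleted than in WT Ngn3-low cells and lower in Jmjd3-deleted than in WT Ngn3-high cells, and the 2 log2 ratios (0.20 and -0.04) differed by 0.24. The opposite directions drew attention to this result, and the difference was not tested, since each group is 1 sample. In Ngn3-low cells the ratio was above 0 in each of the 3 shared title numbers (0.17, 0.39 and 0.28), and in Ngn3-high cells it was below 0 in each of 3 (-0.01, -0.15 and -0.07). The WT Ngn3-low side of these ratios held 10, 13 and 5 cells. Cells that share a number are not known to be matched, so the numbers are not separate repeats. In the title numbers shared by all 4 groups, 1 and 5, the log2 ratios were 0.18 in Ngn3-low and -0.05 in Ngn3-high cells.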

How the results depend on the processing

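No member called by edgeR changed direction under the 14 alternatives run for the bulk comparisons. Of the members called, 6 of 11 risers and 1 of 2 fallers between Ngn3-high and Ngn3-low, 7 of 12 and 11 of 19 between Ins1-RFP+ and Ngn3-high, and 9 of 16 and 9 of 18 between Ins1-RFP+ and Ngn3-low held under each alternative. Fallers between Ngn3-high and Ngn3-low numbered 6 with total counts, 4 with hormone, granin and acinar genes left out of the totals, 4 without a filter and 1 with a filter of 5 CPM, against 2. Total counts moved the median of all genes to -0.24 between Ins1-RFP+ and Ngn3-low, against -0.08. With 1 library left out, risers and fallers numbered 6 to 11 and 1 to 3, 7 to 9 and 13 to 18, and 10 to 16 and 10 to 18 in the 3 comparisons. Lone libraries were assumed to vary like the other groups.

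Library numbers did not pair the samples: same-numbered libraries deviated together with r of 0.067, 0.093 and 0.030. With the replicate block, 17 members rose and 3 fell between Ngn3-high and Ngn3-low, 11 and 21 between Ins1-RFP+ and Ngn3-high, and 19 and 20 between Ins1-RFP+ and Ngn3-low.

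Summed single-cell log2 ratios moved beyond counting error. With the mean of cells, the median of cells, cells of at least 500000 reads, and title numbers 1 and 5 only, Jmjd3-deleted over WT gave 0.16, 0.15, 0.27 and 0.18 in Ngn3-low and -0.059, -0.020, -0.022 and -0.049 in Ngn3-high cells, and Ngn3-high over Ngn3-low gave 0.056, 0.044, 0.15 and 0.16 in WT and -0.16, -0.13, -0.15 and -0.073 in Jmjd3-deleted cells. With ERCC reads in the total, Ngn3-high over Ngn3-low gave 0.075 in WT and -0.16 in Jmjd3-deleted cells. With 1 title number left out the 4 ranges were 0.078 to 0.28, -0.11 to -0.0068, 0.031 to 0.17, and -0.27 to -0.089. Members past 2-fold numbered 1 with deeper cells in Jmjd3-deleted over WT Ngn3-high cells and in Ngn3-high over Ngn3-low Jmjd3-deleted cells, and 0 for WT Ngn3-high over Ngn3-low cells with title numbers 1 and 5 or with 5 CPM added. The cause was not tested. Depth limits members near the floor, such as Cox4i2 and Cox6a2.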
